A study of Homo sapiens with 52 samples.

Results

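The 10 AP-1 transcription factor genes FOS, FOSB, FOSL1, FOSL2, JUN, JUNB, JUND, ATF3, BATF3 and MAFF were taken by symbol from the 59408 genes listed. They were followed through the senescence of WI-38 cells, normal human fibroblasts of embryonic lung. All 10 had a mean level of at least 10 normalized reads over the groups and were tested, among 15606 genes in all. Young cells at a population doubling level of 32 to 46 were left untreated or received for 24 h one of 3 inducers: 0.0090% sodium dodecyl sulfate (SDS), a detergent that damages the plasma membrane and leads to PMD-Sen; 75 mM KCl, which lets calcium in and leads to Ca2+-Sen; or 250 nM doxorubicin (DXR), which damages DNA and leads to DDR-Sen. Cells were collected at the end of the treatment (day 0) and, once washed, after 1, 2, 3 and 4 days as well as on days 6, 8 and 16. Cells in replicative senescence (RS), passaged until they stopped dividing at a doubling level of about 52, complete the 26 groups, each with 2 libraries. The methods call the samples of a group independent, but neither they nor the labels say whether these were separate cultures, so the p-values measure the spread between these libraries, which may be technical.

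AP-1 is a dimer of basic leucine zipper (bZIP) proteins: a Fos protein pairs with a Jun protein, and Jun proteins also pair with each other. FOS, FOSB and JUNB are immediate early genes, switched on within minutes of growth factor, calcium or stress signals through MAP kinases and the factors SRF, CREB and ATF, while FOSL1, FOSL2 and JUND are present for longer in growing or resting fibroblasts. ATF3 and BATF3 pair with Jun proteins, and MAFF is a small Maf protein that lacks an activation domain and pairs with Fos proteins and with NRF2-type factors.

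The level of a gene is its normalized read number in a library, the reads recovered for that library divided by its size factor. Libraries held 13567472 to 49803920 recovered reads (median 26063811), and the untreated pair, with 16671065 and 13567472, was the least deep. In a pair, the values of the deeper library are given first. FOSL1, JUNB, JUND and MAFF on day 1 of DXR are known only as the mean of both libraries. Of 10 fibroblast markers, 7 had values, and their summed level ran from 89302 to 203656 over the groups. Sums ran from 38.2 to 236 for 5 endothelial markers, from 19.7 to 274 for 5 leukocyte markers, of which only CD14 averaged at least 10, and from 2645 to 5827 for 6 epithelial markers, nearly all of it KRT8, KRT18 and KRT19. The sum of 3 muscle markers ran from 6443 to 29635, nearly all of it ACTG2, a smooth muscle actin (mean 15527), and DES reached 75.4 on day 1 of KCl. PECAM1 reached 142 on day 0 of KCl and CD14 reached 270 in the libraries labelled KCl day 8, and on day 0 of SDS 6 of the 7 fibroblast markers were called lower. CDH5, SFTPC, CD3E, MS4A1 and MYH11 averaged under 1, and the part of these markers in the results was not tested. In such bulk RNA, fewer cells of a type and less RNA per cell cannot be told apart. Over 11045 genes, the libraries labelled KCl day 8 were nearest to SDS day 16, at a root mean square log2 difference of 0.30 against 0.41 to SDS day 8. The libraries labelled KCl day 16 were nearest to SDS day 8 (0.28) and farther from SDS day 16 (0.41). Whether these labels are exchanged was not tested, and counts are therefore also given without both groups.

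RefSeq promoters on GRCh38.p14, as the 250 bases before each start, were held for 8 of the 10 genes. The promoters of JUND, MAFF and ATF3 are shown because, of these 8 genes, only these 3 held a match to a site searched for. They were called higher on day 0 of SDS, but so were FOSB, JUN and JUNB, whose windows held no match. Whether these sites bear on the levels was not tested. Letters in capitals are matches to the cAMP response element TGACGTCA (JUND, MAFF), which CREB and ATF proteins bind, and to TGATGNAA (ATF3), the core letters of the site of C/EBP and ATF dimers.
JUND, minus strand, chr19:18281623-18281872: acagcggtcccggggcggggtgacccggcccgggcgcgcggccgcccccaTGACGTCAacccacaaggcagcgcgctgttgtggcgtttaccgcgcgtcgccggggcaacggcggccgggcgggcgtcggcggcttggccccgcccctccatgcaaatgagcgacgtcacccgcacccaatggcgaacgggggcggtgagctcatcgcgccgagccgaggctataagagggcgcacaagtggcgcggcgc
MAFF, plus strand, chr22:38201744-38201993: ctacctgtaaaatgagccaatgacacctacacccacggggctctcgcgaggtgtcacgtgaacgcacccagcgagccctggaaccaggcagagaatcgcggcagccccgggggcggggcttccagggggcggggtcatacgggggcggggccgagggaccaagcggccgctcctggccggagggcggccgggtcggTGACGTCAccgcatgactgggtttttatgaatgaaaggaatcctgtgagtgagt
ATF3, plus strand, chr1:212565157-212565406: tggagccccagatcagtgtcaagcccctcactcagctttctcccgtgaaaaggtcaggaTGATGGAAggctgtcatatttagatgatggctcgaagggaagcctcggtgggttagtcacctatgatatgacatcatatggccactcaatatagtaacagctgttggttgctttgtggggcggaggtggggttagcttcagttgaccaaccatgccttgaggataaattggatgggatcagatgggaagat
TGACGTCA began 200 bases before the start of JUND and 54 before the start of MAFF, and 1.65% of 35114 promoters hold it on either strand. TGATGNAA began 191 bases before the start of ATF3, and 3.14% of promoters hold it. Neither the AP-1 site TGANTCA, held by 6.57% of promoters, nor the CArG box of SRF, held by 1.16%, was in the windows of these 8 genes. Sites farther upstream than 250 bases and sites that differ in a letter were not searched for, so these genes may still have them. ATF3 and MAFF each have a further promoter in the table, with none of these letters.

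Per kb of exon, the untreated level fell in the order FOSL1 (3393 normalized reads per kb), JUN (1880), JUND (1153), JUNB (665), FOSL2 (450), MAFF (291), ATF3 (101), BATF3 (50), FOS (11.8) and FOSB (5.96). FOS and FOSB, the best known immediate early members, were thus the least abundant, with 23 and 19 reads for FOS in the untreated libraries. Between their lowest and highest groups, FOS varied 62.5-fold, ATF3 34.7-fold and FOSB 18.7-fold, while the other 7 genes varied between 2.43-fold (JUNB) and 3.41-fold (BATF3). Against untreated cells, 45 of the 250 gene and group pairs were called higher and 54 lower at an adjusted p under 0.05, 39.6% in all against 30.1% of all tests over the 15606 genes. Without the groups labelled KCl day 8 and day 16, these counts were 38 and 51. The members called higher and lower numbered 6 and 1 of 10 on day 0 of SDS, 7 and 3 in KCl, and 5 and 1 in DXR, where 26.3% and 29.1%, 26.9% and 32.0%, and 18.4% and 21.4% of all genes were called higher and lower. Their median log2 difference on day 0 was 0.84 in SDS, 0.67 in KCl and 0.52 in DXR, beside -0.03, -0.04 and -0.01 for all genes. On day 16 the counts were 2 and 2 in SDS, 3 and 1 in KCl, 2 and 2 in DXR and 2 and 2 in RS, where 43.4%, 16.2%, 46.7% and 47.1% of all genes were called in either direction. Day by day, the share of all genes called in either direction was 30.5% on day 1, 19.8% on day 2, 21.0% on day 3, 24.0% on day 4, 30.7% on day 6 and 25.9% on day 8 in SDS. It was 16.5% on day 1, 5.25% on day 2, 15.2% on day 3, 20.0% on day 4, 26.7% on day 6 and 42.7% on day 8 in KCl and 27.8% on day 1, 19.4% on day 2, 21.2% on day 3, 24.6% on day 4, 36.1% on day 6 and 36.7% on day 8 in DXR. The genes did not move as 1 block. JUND was called higher in 19 of the 25 comparisons and lower in 1, FOSL1 was lower in 19 and BATF3 in 17, ATF3 was higher in 8 and lower in 2, and JUN was called in 3.

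**Figure D1:**
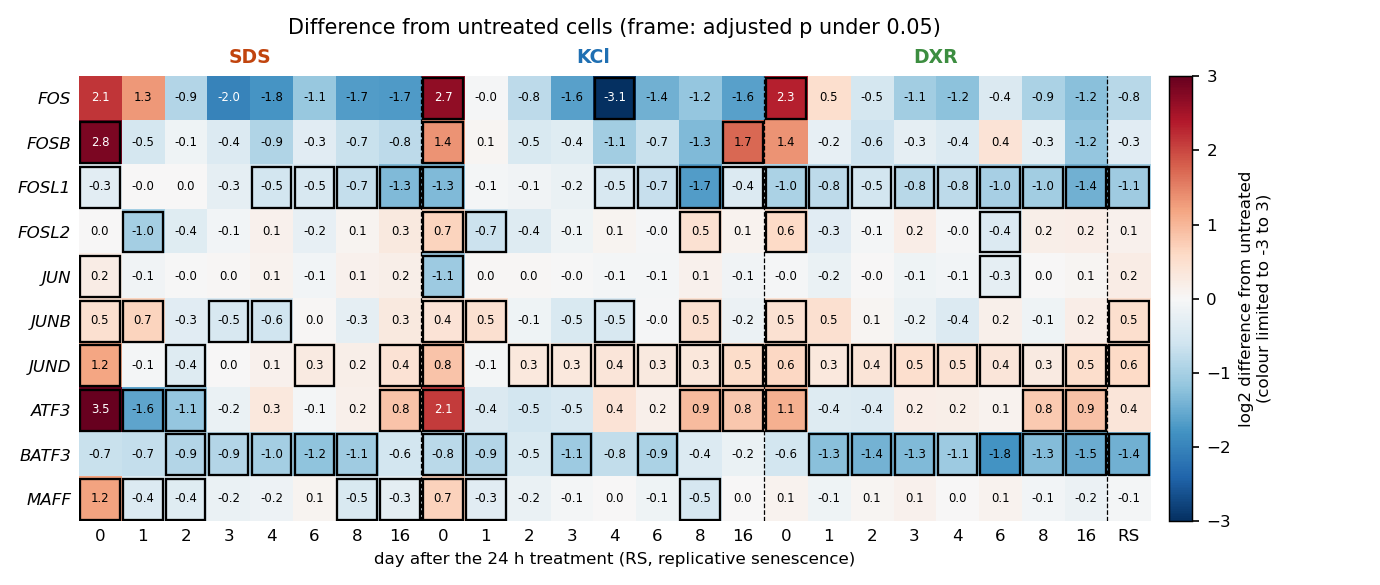
Log2 difference from untreated cells for each member (rows) in each group (columns, by inducer and day, with RS last), from the limma fit; frames mark an adjusted p under 0.05, and the colour stops at -3 and 3. The day 0 columns hold most of the strong rises, while the FOSL1 and BATF3 rows are blue and the JUND row is red in nearly every column.

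FOS lies at chr14:75278774-75282230 and encodes the founding Fos protein. At the end of the treatments it stood at 317 and 91.9 normalized reads in SDS, 111 and 545 in KCl and 493 and 77.3 in DXR, against 37.9 and 38.4 in untreated cells. All 6 day 0 libraries lay above both untreated libraries, but the libraries of a pair lay 3.45-fold (SDS), 4.93-fold (KCl) and 6.38-fold (DXR) apart. The log2 difference from untreated cells was 2.15 (standard error 0.93, adjusted p = 0.0515) in SDS, 2.67 (standard error 0.93, adjusted p = 0.0151) in KCl and 2.34 (standard error 0.93, adjusted p = 0.0458) in DXR. The KCl call was lost without the deeper untreated library (2.66), the shallower untreated library (2.68) or the shallower KCl day 0 library (1.53). The DXR call was lost without the deeper untreated library (2.33), the shallower untreated library (2.35) or the deeper DXR day 0 library (1.01). On day 1, FOS was at 36.1 and 248 in SDS, 30.3 and 45.8 in KCl and 43.4 and 68.5 in DXR, so 1 SDS library was still high and the other at the untreated level. In 18 of the 25 groups, among them all groups of days 2 to 16, both libraries lay below both untreated ones. The only call among these was KCl day 4, at 1.66 and 8.83 with a log2 difference of -3.11 (standard error 0.93, adjusted p = 0.0185); it rests on 2 and 6 reads and was lost without the deeper untreated library (-3.11), the shallower untreated library (-3.10) or the deeper KCl day 4 library (-2.05), and with a pseudocount of 5 (-2.17). In RS the libraries held 56.6 and 7.66, 7.39-fold apart and 1 on each side of the untreated pair. No difference between inducers on the same day was called for FOS.

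FOSB, at chr19:45467995-45475179, encodes a close relative of FOS that is induced in the same way. It was at 37.9 and 28.3 normalized reads in untreated cells and at 279.6 and 195 on day 0 of SDS, a log2 difference of 2.82 (standard error 0.57, adjusted p = 9.54e-05) that held with each library left out. On day 0 of KCl it was at 37.4 and 189.7 and on day 0 of DXR at 145 and 48.6, so the SDS libraries were the highest and 1 KCl library overlapped the untreated range. The KCl difference was 1.35 (standard error 0.57, adjusted p = 0.0421) and was lost without the deeper untreated library (1.56), the shallower untreated library (1.15) or the shallower KCl day 0 library (0.19), and that of DXR was 1.35 (standard error 0.57, adjusted p = 0.0603). On day 1 of SDS the level had fallen to 16.8 and 30, a log2 change from day 0 of -3.35 (standard error 0.57, adjusted p = 7.76e-06). The libraries labelled KCl day 16 stood apart from all other late groups, at 107 and 112 against 12.7 and 12.7 for KCl day 8, 21.2 and 16.5 for SDS day 16 and 23.6 and 8.57 for DXR day 16. The difference of KCl day 16 from DXR day 16 was 2.89 (standard error 0.57, adjusted p = 0.000264), and that of SDS day 16 from KCl day 16 was -2.52 (standard error 0.57, adjusted p = 0.00163); both held with each library left out, and 27.5% and 22.9% of all genes were called in these comparisons. Against untreated cells the KCl day 16 difference was 1.72 (standard error 0.57, adjusted p = 0.0359) and was lost without the deeper untreated library (1.93), the shallower untreated library (1.52), the deeper KCl day 16 library (1.76) or the shallower KCl day 16 library (1.69). FOS, whose protein has the same partners, was at 13.1 and 11.2 in these libraries, below the untreated pair.

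**Figure D2:**
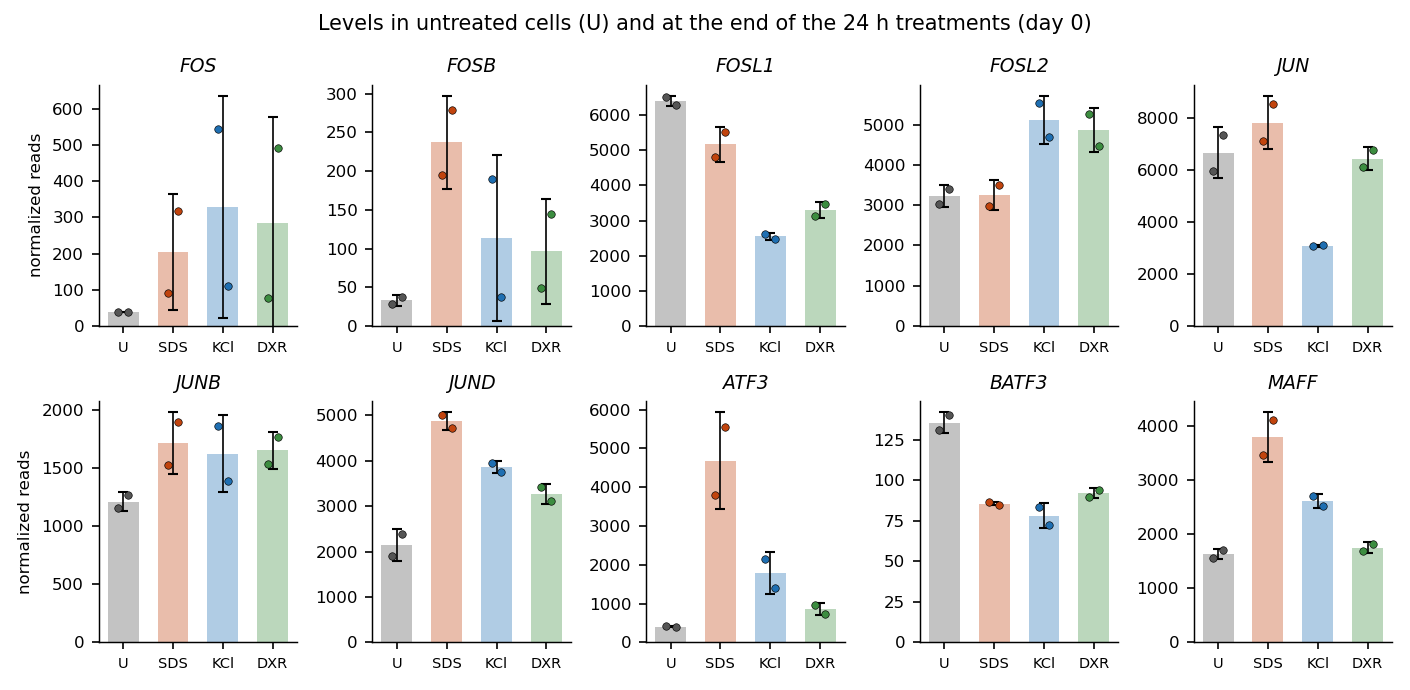
Normalized reads (vertical axes, from 0) of each member in untreated cells (U) and on day 0 of SDS, KCl and DXR; points are the 2 libraries, bars their mean and error bars their SD. ATF3, JUND, MAFF and FOSB are highest in SDS, JUN is low in KCl alone, and the 2 libraries of a day 0 pair lie far apart for FOS.

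FOSL1 (chr11:65892049-65900573) encodes FRA1, a long-lived Fos protein of growing and invasive cells, and was the most abundant member per kb. Untreated libraries held 6300.1 and 6503 normalized reads. On day 0 the level was 5521 and 4820.0 in SDS, 2475 and 2617 in KCl and 3467 and 3132 in DXR, all below the untreated pair, with KCl lowest. The log2 difference was -1.33 (standard error 0.12, adjusted p = 7.42e-11) in KCl, -0.96 (standard error 0.12, adjusted p = 1.61e-07) in DXR and -0.31 (standard error 0.12, adjusted p = 0.0322) in SDS, the last lost without the deeper untreated library (-0.33), the shallower untreated library (-0.29) or the shallower SDS day 0 library (-0.21). Within a day of the wash, FOSL1 was back at 5904 and 6908 in SDS and 6219.8 and 6079 in KCl, and no change was called in either, but it was at 3716 as the mean of both in DXR. It was lower again in SDS later, at 4311 and 4487 on day 4, 3376 and 4459 on day 8 and 2959.7 and 2189 on day 16, when the log2 difference was -1.33 (standard error 0.12, adjusted p = 4.57e-10). In DXR it was called lower on all 8 days and reached 2451 and 2285 on day 16, a log2 difference of -1.44 (standard error 0.12, adjusted p = 4.05e-11). RS, at 2915 and 3175, differed from untreated cells by -1.07 (standard error 0.12, adjusted p = 1.39e-08). No library of these 3 end states overlapped the untreated pair. The libraries labelled KCl day 8 held 2044 and 1982, the lowest mean of all groups with a log2 difference of -1.67 (standard error 0.12, adjusted p = 9.17e-12), and those labelled KCl day 16 held 4940.0 and 4768. Of its 19 calls against untreated cells, 15 held with each library left out, where on day 1 of DXR only the untreated libraries could be left out singly.

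FOSL2 (chr2:28392448-28417312), the gene of FRA2, moved the other way on day 0 of KCl and DXR. It was at 4689 and 5537 normalized reads in KCl and 4478 and 5256 in DXR, above the 3412 and 3026 of untreated cells, while SDS, at 3509 and 2981, overlapped them. The log2 difference was 0.67 (standard error 0.16, adjusted p = 0.000523) in KCl and 0.59 (standard error 0.16, adjusted p = 0.00277) in DXR, where it was lost without the shallower DXR day 0 library (0.48); in SDS it was 0.01 (95% interval -0.31 to 0.33, adjusted p = 0.966). On day 1 FOSL2 was at 1619.8 and 1545 in SDS and 2044 and 2057 in KCl, the lowest groups of these inducers, and at 2607 and 2477 in DXR, where day 6 was lower still (2440.2 and 2376). The change from day 0 to day 1 was -1.03 (standard error 0.16, adjusted p = 1.43e-06) in SDS, -1.31 (standard error 0.16, adjusted p = 1.72e-08) in KCl and -0.93 (standard error 0.16, adjusted p = 6.84e-05) in DXR, and all 3 held with each library left out. Against untreated cells, the log2 difference on day 1 was -1.02 (standard error 0.16, adjusted p = 1.04e-05) in SDS and -0.65 (standard error 0.16, adjusted p = 0.00425) in KCl, the latter lost without the deeper untreated library (-0.56). The SDS libraries overlapped the untreated range again on day 3 and the KCl libraries on day 4. In RS the libraries lay 1.74-fold apart, at 2660.2 and 4619, and no change was called.

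JUN (chr1:58780788-58784327), the partner that Fos proteins share, moved little outside day 0 of KCl. In 22 of the 25 groups its libraries overlapped the untreated 7348 and 5965 normalized reads. The other 3 groups, KCl day 0 and DXR days 1 and 6, lay below. On day 0 of KCl JUN was at 3114 and 3052, less than any other library of the series for this gene. The log2 difference of -1.10 (standard error 0.10, adjusted p = 1.38e-11) held with each library left out, and by day 1 the level was 6803 and 6724, a log2 rise of 1.13 (standard error 0.10, adjusted p = 6.27e-12). SDS day 0 libraries held 8536 and 7096 and DXR day 0 libraries 6747 and 6117. The SDS difference from untreated cells was 0.23 (standard error 0.10, adjusted p = 0.0426), with overlapping libraries, and was lost without the shallower untreated library (0.08) or the deeper SDS day 0 library (0.10). The call on day 6 of DXR, at a log2 difference of -0.26 (standard error 0.10, adjusted p = 0.0341), was lost without the deeper untreated library (-0.11) or the shallower DXR day 6 library (-0.19).

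JUNB (chr19:12791496-12793315), a Jun protein often set against JUN in growth control, rose on day 0 of all 3 inducers. Untreated cells had 1267 and 1155 normalized reads, against 1901 and 1525 in SDS, 1390.1 and 1859.8 in KCl and 1766 and 1539.6 in DXR. The 6 treated libraries lay above both untreated ones, with log2 differences of 0.49, 0.41 and 0.45 that were each called. JUNB was still at 1649 and 2255 on day 1 of SDS, where ATF3 and FOSB had already fallen, and then at 816 and 791 on day 4, its lowest group. The log2 difference in SDS on these days was 0.67 (standard error 0.17, adjusted p = 0.00305) and -0.59 (standard error 0.17, adjusted p = 0.0113). This course was not particular to SDS. In KCl and DXR the JUNB means were 1707 and 1691 on day 1 and 860.3 and 917.1 on day 4, the lowest day of each. Against untreated cells, JUNB was called on both days in KCl and on neither in DXR. None of its 10 calls against untreated cells held with each library left out. The day 1 call of SDS was lost without the shallower SDS day 1 library (0.45), the day 4 call without the deeper untreated library (-0.52) or the shallower SDS day 4 library (-0.57), and that of RS, 0.50 (standard error 0.17, adjusted p = 0.0171), without the shallower untreated library (0.43), the deeper RS library (0.48) or the shallower RS library (0.51). On day 0, the SDS call was lost without the shallower untreated library (0.43) or the deeper SDS day 0 library (0.33), the KCl call without the deeper untreated library (0.48), the shallower untreated library (0.34) or the shallower KCl day 0 library (0.20) and the DXR call without the deeper untreated library (0.51), the shallower untreated library (0.38), the deeper DXR day 0 library (0.35) or the shallower DXR day 0 library (0.55).

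JUND (chr19:18279760-18281622), whose protein is known to restrain growth in fibroblasts, rose on day 0 in every inducer and stayed above the untreated level in most later groups. Its promoter is the first shown above. From 2396 and 1901 normalized reads in untreated cells it went to 4732 and 5007 in SDS, 3762 and 3949.5 in KCl and 3113 and 3429.7 in DXR, in that order and with no overlap between any of these groups. The log2 difference was 1.19 (standard error 0.08, adjusted p = 7.06e-14) in SDS, 0.85 (standard error 0.08, adjusted p = 1.35e-10) in KCl and 0.61 (standard error 0.08, adjusted p = 2.88e-07) in DXR, and all 3 held with each library left out. SDS then passed below the start, to 1538 and 1717 on day 2, a log2 difference of -0.39 (standard error 0.08, adjusted p = 0.00111) that was lost without the deeper untreated library (-0.23). KCl on day 1 was at 2029 and 2048 and overlapped untreated cells, while DXR lay above both untreated libraries on the 7 days with values for each library and, as the mean of the pair, on day 1. On day 16 the libraries held 2847 and 2939 in SDS, 3029 and 3187 in KCl and 3191 and 2975 in DXR, and 3248 and 3206 in RS. These end states lay above both untreated libraries, by 0.44, 0.54, 0.53 and 0.60 on the log2 scale, and each call held with each library left out, while that of SDS was lost when its groups were fitted alone (0.44). The untreated libraries themselves lay 1.26-fold apart, the widest pair of this gene. Of the 20 JUND calls, 10 were lost without the shallower untreated library, which held less JUND, and 1 without the deeper one.

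**Figure D3:**
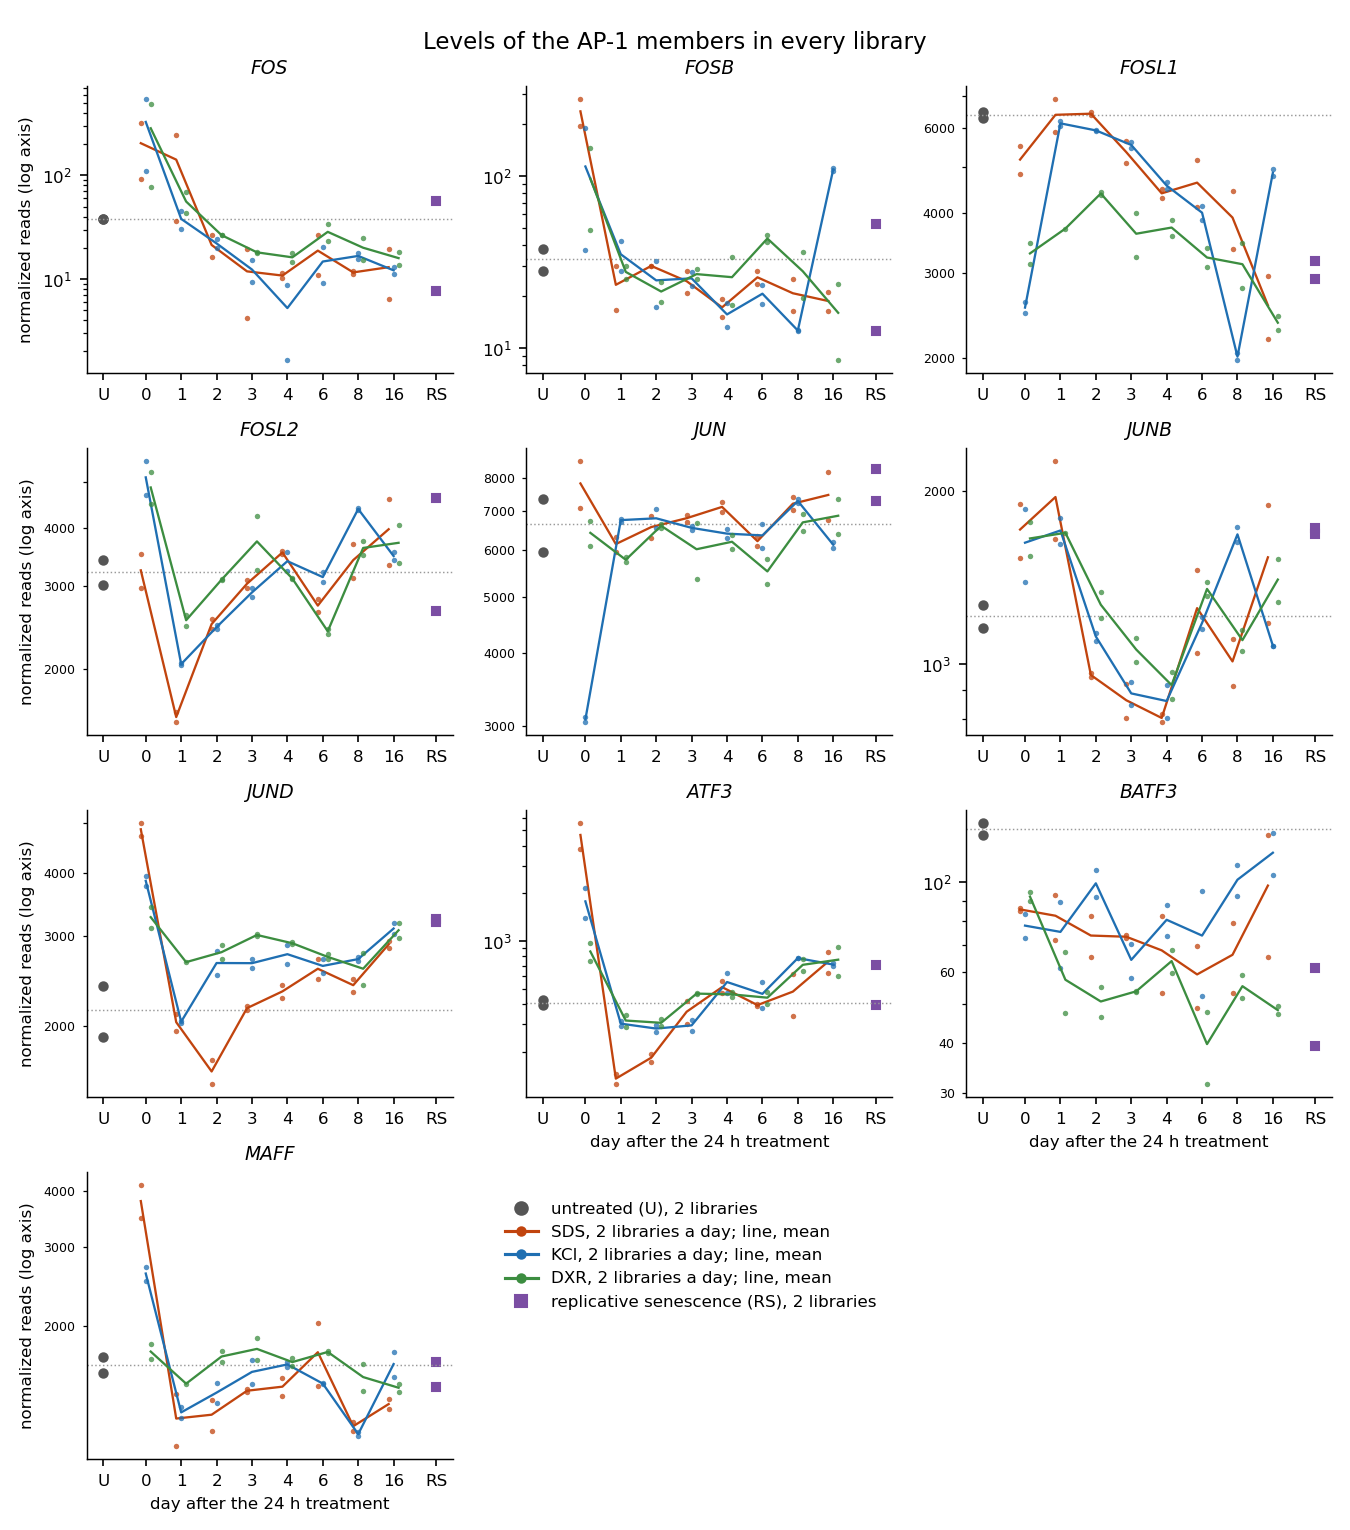
Normalized reads (vertical axes, log scale) of each member in every library against the day after treatment, with untreated cells (U) at the left and RS at the right; points are libraries, lines join the means of an inducer, and the dotted line is the untreated mean. FOSL1, JUNB, JUND and MAFF on day 1 of DXR are the mean of both libraries. ATF3, FOSB, JUND and MAFF peak on day 0 of SDS, FOSL1 lies below the untreated mean in most groups, and FOSB and FOSL1 jump between KCl day 8 and day 16.

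ATF3 (chr1:212565334-212620777), a stress-induced bZIP protein that mostly represses transcription, had the widest response of the abundant members. Untreated cells held 394 and 422 normalized reads. On day 0 SDS stood at 5559 and 3801, KCl at 1401 and 2161 and DXR at 745 and 973, with no overlap among these 4 groups. The log2 difference was 3.49 (standard error 0.27, adjusted p = 7.93e-12) in SDS, 2.09 (standard error 0.27, adjusted p = 1.51e-07) in KCl and 1.06 (standard error 0.27, adjusted p = 0.00244) in DXR, the last lost without the shallower DXR day 0 library (0.87). A day later SDS had dropped below the start, to 125 and 145, its lowest group, with a log2 difference from untreated cells of -1.59 (standard error 0.27, adjusted p = 5.69e-05) and from day 0 of -5.09 (standard error 0.27, adjusted p = 1.89e-15). In KCl and DXR, day 1 was at 313 and 289 and 341 and 288, also below the untreated pair but not called. Day 1 of SDS lay below both, with a log2 difference from KCl of -1.15 (standard error 0.27, adjusted p = 0.0032) and from DXR of -1.22 (standard error 0.27, adjusted p = 0.000925), where 19.4% and 33.2% of all genes were called; the difference from KCl was not called with voom weights (-1.19). The level rose again later: on day 16 it was 628 and 857 in SDS, 692 and 728 in KCl and 602 and 923 in DXR, all above both untreated libraries. In limma these differences were 0.85 (standard error 0.27, adjusted p = 0.0128), 0.80 (standard error 0.27, adjusted p = 0.0432) and 0.87 (standard error 0.27, adjusted p = 0.0098). The calls did not hold with each library left out. They were lost in SDS without the deeper untreated library (0.80) or the shallower SDS day 16 library (0.62), in KCl without the deeper untreated library (0.75), the shallower untreated library (0.85), the deeper KCl day 16 library (0.84) or the shallower KCl day 16 library (0.76), and in DXR without the deeper untreated library (0.82) or the shallower DXR day 16 library (0.56). ATF3 was also called higher in the group labelled KCl day 8, at a mean of 779.9, and that call held with each library left out. The call of DXR day 8, at a mean of 707.4, did not. In RS the libraries held 393 and 710.4, the deeper one at the untreated level, and no change was called (0.37).

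BATF3 (chr1:212686418-212699985), which lies close to ATF3 on chromosome 1 and is best known from dendritic cells, was highest in untreated cells, at 140.0 and 131 normalized reads. In 24 of the 25 other groups both libraries lay below this pair. The lowest group was DXR day 6, with 31.7 and 47.8 and a log2 difference of -1.79 (standard error 0.29, adjusted p = 1.04e-05). Day 16 of DXR was at 47.2 and 49.3, -1.48 (standard error 0.29, adjusted p = 9.08e-05). RS was at 39.4 and 61.3 with -1.45 (standard error 0.29, adjusted p = 0.000111). All 3 calls held with each library left out. On day 0 the levels were 84.9 and 86.4 in SDS, 72.7 and 83.5 in KCl and 94.3 and 89.9 in DXR, and only KCl was called lower, at a log2 difference of -0.80 (standard error 0.29, adjusted p = 0.0202); it was lost without the deeper untreated library (-0.75), the shallower untreated library (-0.84) or the deeper KCl day 0 library (-0.70). Of the 17 calls, 7 held with each library left out. On day 16 of KCl, BATF3 was at 104 and 132, above DXR day 16 by 1.28 (standard error 0.29, adjusted p = 0.00129). The shared untreated pair, the least deep libraries, enters each of these 25 comparisons.

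MAFF (chr22:38200767-38216511) rose with ATF3 and JUND on day 0 of SDS and KCl. It stood at 4116 and 3472 normalized reads in SDS and 2522 and 2711 in KCl against 1702 and 1568 in untreated cells, with no overlap, and DXR was at 1822 and 1686. The log2 difference was 1.21 (standard error 0.12, adjusted p = 1.26e-10) in SDS and 0.68 (standard error 0.12, adjusted p = 7.35e-06) in KCl, both kept with each library left out, and 0.10 (95% interval -0.14 to 0.34, adjusted p = 0.527) in DXR. By day 1 of SDS it had fallen to 1081 and 1408 and by day 1 of KCl to 1249 and 1319, log2 changes of -1.62 (standard error 0.12, adjusted p = 1.29e-13) and -1.03 (standard error 0.12, adjusted p = 3.49e-09). Below the untreated level, the call of KCl day 8, at 1161 and 1137 with -0.51 (standard error 0.12, adjusted p = 0.000649), held with each library left out. MAFF was also called lower on days 1, 2, 8 and 16 of SDS, at means of 1244, 1269, 1196 and 1340. The other call was day 1 of KCl, at 1284. Each of these calls was lost with at least 1 library left out. In DXR, MAFF was called on no day.

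The inducers were then compared directly at the end of the treatments, which asks whether membrane damage, calcium entry and DNA damage set the AP-1 genes differently. Between SDS and KCl on day 0, 6 members were higher in SDS and 1 lower, where 32.6% of all genes were called higher and 31.0% lower. The counts between SDS and DXR were also 6 and 1, against 28.0% and 28.3% of all genes. SDS was above both other inducers in ATF3, by 1.40 (standard error 0.27, adjusted p = 5.28e-05) over KCl and 2.43 (standard error 0.27, adjusted p = 9.99e-09) over DXR. MAFF was above KCl by 0.53 and above DXR by 1.11 (standard error 0.12, adjusted p = 7.85e-10). JUND differed by 0.34 and 0.57, and FOSL1 by 1.02 and 0.65, each higher in SDS. All of these held with each library left out, but the ATF3 call against KCl was lost when those groups were fitted alone (1.40). FOSB was higher in SDS by 1.46 (standard error 0.57, adjusted p = 0.0263) and 1.47 (standard error 0.57, adjusted p = 0.0289), but was lost against KCl without the deeper SDS day 0 library (1.20) or the deeper KCl day 0 library (0.30) and against DXR without the deeper SDS day 0 library (1.21) or the shallower DXR day 0 library (0.69). FOSL2 was the member lower in SDS, with log2 differences of -0.66 (standard error 0.16, adjusted p = 0.000512) against KCl and -0.59 (standard error 0.16, adjusted p = 0.00195) against DXR. Between KCl and DXR, 3 members were higher in KCl and 2 lower, beside 29.3% and 31.3% of all genes. JUN was the clearest of these, lower in KCl than in DXR at a log2 difference of -1.06 (standard error 0.10, adjusted p = 2.68e-11), and the difference of SDS from KCl was 1.34 (standard error 0.10, adjusted p = 6.65e-14). No difference between inducers was called for JUNB on day 0, with intervals of -0.26 to 0.43 (SDS over KCl), -0.30 to 0.39 (SDS over DXR) and -0.38 to 0.31 (KCl over DXR). For FOS the intervals were wide, and that of SDS over KCl, -2.43 to 1.38, holds differences of several-fold. Over all 24 comparisons of inducers on the same day, 31 of 240 member tests were higher and 19 lower, 20.8% in all against 17.5% of all tests, and 23 and 13 without the groups labelled KCl day 8 and day 16.

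The step from day 0 to day 1 followed the removal of the inducer. In SDS, 1 member was called higher and 6 lower on day 1 than on day 0, where 25.8% of all genes were lower and 30.4% higher. In KCl, 2 were higher and 5 lower, beside 31.4% and 27.9% of all genes. In DXR, none of the 10 was called higher in this limma fit and 4 were called lower, beside 10.3% and 8.70% of all genes; at an unadjusted p under 0.05, the number higher was 0. JUND fell by 1.26 on the log2 scale in SDS, by 0.92 in KCl and by 0.29 in DXR, the last lost without the shallower DXR day 0 library (-0.22); the day 1 libraries, known only as their mean, could not be left out singly. ATF3 fell in all 3 inducers, with log2 changes of -2.53 (standard error 0.27, adjusted p = 4.06e-09) in KCl and -1.44 (standard error 0.27, adjusted p = 0.000341) in DXR beside the SDS change above. FOSL1 rose by 1.27 (standard error 0.12, adjusted p = 1.73e-10) in KCl.

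Day 16 was compared with RS to ask how the late levels of the induced states stood to natural senescence. DXR day 16 differed from RS in 0 of the 10 members in this limma fit, where 3.31% of all genes were called, and in 1 at an unadjusted p under 0.05. SDS day 16 differed in 1, BATF3, which was higher by 0.91 (standard error 0.29, adjusted p = 0.0272), beside 19.3% of all genes; the call was lost without the deeper RS library (0.59) or the shallower SDS day 16 library (0.41). The libraries labelled KCl day 16 differed in 5, beside 28.7% of all genes. FOSB (2.06), FOSL1 (0.67) and BATF3 (1.25) were higher, and JUN (-0.34) and JUNB (-0.67) lower. The BATF3 call was lost when those groups were fitted alone (1.25). The FOSB call was lost without the shallower RS library (1.04) and the JUN call without the shallower RS library (-0.25) or the shallower KCl day 16 library (-0.32). Against untreated cells, day 16 of all 3 inducers and RS each had FOSL1 lower and JUND higher, though the FOSL1 call of KCl, at -0.40 (standard error 0.12, adjusted p = 0.024), was lost without the deeper untreated library (-0.42), the shallower untreated library (-0.38), the deeper KCl day 16 library (-0.42) or the shallower KCl day 16 library (-0.37). BATF3 was lower in DXR day 16 and RS and, at 65.3 and 131, was not called in SDS day 16, at -0.55 (standard error 0.29, adjusted p = 0.132). Of all genes, 43.4% (SDS day 16), 46.7% (DXR day 16) and 47.1% (RS) were called in these comparisons with shared controls. From day 8 to day 16, 2 members (JUNB and JUND) rose and 1 (FOSL1) fell in SDS, 3 rose and 1 fell between the groups labelled KCl, and none of 10 was called in DXR in this limma fit (2 at an unadjusted p under 0.05), beside 11.5%, 22.9% and 3.90% of all genes. In SDS, the calls were lost for JUNB without the shallower SDS day 8 library (0.43) or the shallower SDS day 16 library (0.23), for JUND without the shallower SDS day 8 library (0.23) or the shallower SDS day 16 library (0.24) and for FOSL1 without the shallower SDS day 8 library (-0.41) or the shallower SDS day 16 library (-0.39). In KCl, FOSB was higher on day 16 by 3.06 (standard error 0.57, adjusted p = 0.000291) and FOSL1 by 1.27 (standard error 0.12, adjusted p = 1.09e-07). Over the 6 comparisons of days, 8 of 60 member tests were higher and 17 lower (41.7% against 28.8% of all tests), and over the 3 with RS, 4 of 30 were higher and 2 lower (20.0% against 17.1%); without the groups labelled KCl day 8 and day 16 the counts were 5 and 16, and 1 and 0.

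How well the libraries of a group agreed differed between the members. FOS had a residual SD of 0.96 on the log2 scale, above 97.8% of the 500 genes nearest to it in level, whose median was 0.30. FOSB had 0.61 (median of its neighbours 0.33, above 92.4% of them) and ATF3 0.28 (0.11, above 97.2%). FOSL1, FOSL2 and JUNB, at 0.13, 0.16 and 0.18, were also more variable than 86.0% to 93.8% of genes of like level. JUND, at 0.08, was like its neighbours. The pairs of FOS lay a median of 1.60-fold apart, and 10 of 26 pairs more than 2-fold, against 4 for FOSB, 1 for BATF3 and 0 for the other 7 members. The deeper library held more FOS in 13 of the 26 pairs. The library with more FOS also held more FOSB in 12 of 26 pairs. Among the FOS pairs more than 2-fold apart, the same library held more of both genes on day 0 of each inducer and in RS. It also did so on day 1 of SDS and day 6 of KCl. On days 3, 6 and 16 of SDS and day 4 of KCl, where FOS was at 26.6 or less, the other library held more FOSB. The cause was not tested.

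**Figure D4:**
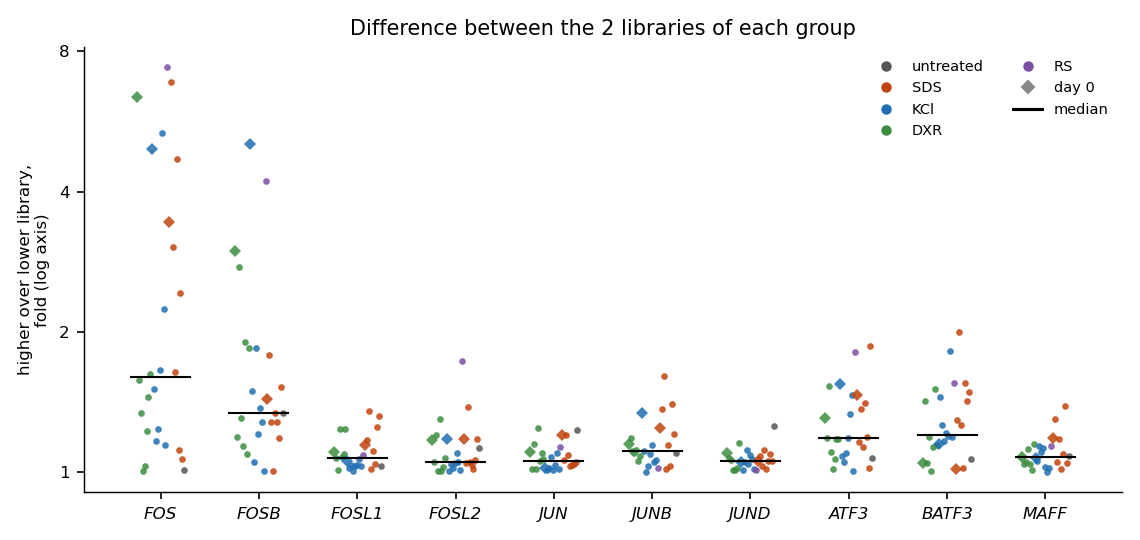
Fold between the higher and the lower library of each group (vertical axis, log scale) for each member; each point is 1 pair of libraries, diamonds are day 0, colours are inducers, and the bar is the median. FOS reaches 7.39-fold in RS and FOSB 5.07-fold on day 0 of KCl, while no pair of FOSL1, JUN, JUND or MAFF passes 1.5-fold.

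Other genes of the pathway were read from 4 lists, which were not tested as sets; the shares of all genes called in these comparisons stand with the counts of members above. Of 24 further bZIP genes, 23 were tested: on day 0, 13 were higher and 4 lower in SDS, 14 and 3 in KCl, and 7 and 4 in DXR, with median log2 differences of 0.50, 0.50 and 0.01 where the medians of all genes were -0.03, -0.04 and -0.01. In SDS the strongest were DDIT3 (CHOP), higher by 3.70 (standard error 0.17), CREB5 by 1.84 (0.29) and MAFG, a small Maf like MAFF, by 1.65 (0.09). In KCl, MAFK rose by 1.71 (0.14) and ATF4 by 1.34 (0.14), and MAF fell by 2.44 (0.44). DXR day 0 had MAF higher by 2.26 (0.44) and DDIT3 by 0.68 (0.17). On day 16, MAF was higher in SDS (2.62) and DXR (2.81), and in RS by 3.52, each with a standard error of 0.44. ATF1 was lower on day 16 of SDS (-0.84) and KCl (-0.41), and NFE2L2, which encodes NRF2, was higher on day 16 of KCl (0.57) and DXR (0.93) and in RS (0.73). Adjusted p-values from limma for the named genes of the 4 lists ran up to 0.0425.

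The 25 upstream kinases and SRF and TCF factors were read in the same way. On day 0, 5 were higher and 12 lower in SDS, 12 and 4 in KCl, and 3 and 7 in DXR. SRF, the serum response factor that binds the CArG box, was lower by 1.23 (standard error 0.13) in SDS and by 0.54 (0.13) in DXR, and MAP3K5, the stress kinase ASK1, was lower by 1.54 (0.11) and 0.85 (0.11). MEF2C was lower in SDS (-1.31) and KCl (-1.87), and MAPK11 in KCl (-1.68). MAP3K8 was higher in KCl (2.02) and DXR (0.90). On day 16, ELK3 was lower in all 3 inducers (-0.75 in SDS, -0.43 in KCl, -0.79 in DXR), ELK4 in SDS and DXR (-0.79 and -0.73) and in RS (-0.56), MAPK8, the gene of JNK1, in KCl (-0.31), and SRF in DXR (-0.71) and RS (-0.66). MAP3K5 was lower in RS by 0.84, and MAPK3, the gene of ERK1, was higher on day 16 of SDS (0.66) and KCl (0.41). Of the 10 genes listed for AP-1 feedback and turnover, 1 was higher and 5 lower on day 0 of SDS, 2 and 5 in KCl, and 1 and 3 in DXR. ZFP36L2, of a family that binds AU-rich mRNAs such as FOS mRNA, was lower by 1.85 (0.13) on day 0 of SDS. CTNNBIP1, which encodes a beta-catenin binding protein and whose link to AP-1 was not tested, was lower in SDS (-0.99) and KCl (-1.37). MEN1, which encodes the JUND partner menin, was lower in KCl (-0.81). FBXW7, part of the ubiquitin ligase that marks JUN for breakdown, was higher in KCl (0.69) and DXR (0.69). ZFP36 was lower in DXR on day 0 (-0.38) and RS (-0.44), ZFP36L2 in RS (-0.44), and SIRT1 on day 16 of SDS (-0.46) and DXR (-0.35). ZFP36L1 was lower on day 0 of DXR (-0.22) and higher on day 16 of SDS (0.34), KCl (0.38) and DXR (0.31) and in RS (0.44).

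Of 40 genes listed as AP-1 targets in fibroblasts, 33 were tested. On day 0, 13 were higher and 7 lower in SDS (median log2 difference 0.72), 7 and 7 in KCl (0.01), and 10 and 3 in DXR (0.44). On day 16, 0 were called higher by limma in SDS and 12 lower (median -0.59), 1 and 8 in KCl (-0.40), and 5 and 11 in DXR (-0.28), and in RS 7 and 7 (-0.10), while the medians of all genes lay between -0.01 and 0.00. Of all genes, 43.4% (SDS), 16.2% (KCl), 46.7% (DXR) and 47.1% (RS) were called there in either direction. CXCL8, the neutrophil chemokine, was higher by 5.04 (standard error 1.04) on day 0 of SDS, PTGS2, the inducible cyclooxygenase, by 4.38 (0.70), and ANGPTL4 by 3.93 (0.29). PTGS2 rose by 3.26 (0.70) on day 0 of KCl with TNC (1.66), while the cytokine LIF fell by 2.54 (0.23). On day 0 of DXR the strongest were IL1B (3.76), INHBA (1.92) and ANGPTL4 (1.39). By day 16, SPHK1 was lower in SDS (-2.42), KCl (-1.15) and DXR (-1.96), IL11 in SDS (-1.95) and DXR (-1.93), FST in SDS (-1.92) and TIMP1 in KCl (-0.67). EREG was higher on day 16 of KCl (0.90) and CCL2 on day 16 of DXR (1.60) and in RS (2.10). ANGPTL4 was higher in RS (1.75) and MMP10 lower (-2.92).

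As a description of likeness, the group means of each member were correlated with those of 11038 other genes of mean level at least 100 over the 26 groups, which share their libraries and scaling. Within the family, JUND and ATF3 were the most alike (Pearson r = 0.85), followed by FOSB and MAFF (0.78), JUND and MAFF (0.77) and ATF3 and MAFF (0.74), and FOSL1 ran against FOSL2 (-0.69). Outside it, ATF3 was most like NUPR1 (0.91), TMEM39A (0.90) and DDIT4 (0.89), and FOSL1 most like EIF5AL1 (0.93), RUVBL2 (0.93) and SNRPD1 (0.92). JUN was most like FAM114A2 (0.92), MTR (0.91) and TMEM106B (0.91), and JUND most like ZHX2 (0.88), SLC7A11 (0.84) and TMEM45A (0.84). MAFF was nearest to SLC35A2 (0.91), GOLGA3 (0.88) and SELENOS (0.88), and FOS to ZNF697, LGALS8 and NPC1 (each 0.89). FOSB was nearest to EFCAB2 (0.85), FNIP1 (0.83) and KLHL15 (0.82), FOSL2 to GATA6 (0.87), LMCD1 (0.87) and ADRA1B (0.86), JUNB to DHX32 (0.81), NPR2 (0.80) and FRAT2 (0.80), and BATF3 to PRKDC (0.82), TCF12 (0.81) and MAT2A (0.80). EIF5AL1 has a close copy, EIF5A, between which the counting could split reads.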

How the data were processed

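Total RNA of 52 labelled libraries (26 groups of 2) was sequenced as mRNA in paired ends. The submitters' processing notes name Trim Galore, HISAT2, HTSeq, featureCounts and DESeq2 with the build GRCh38/hg38, without versions. The 52 deposited tables hold 25 distinct comparisons with the untreated pair; the untreated samples carry the RS table. Per the file headers each lists a mean normalized read number, which the authors' program averaged over the 4 libraries compared and which is treated as a signal value, beside the authors' log2 fold changes, their standard errors, test statistics and p-values, which were not used.

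Because each deposited signal is a sum of whole reads divided by size factors, and the untreated pair is shared, the reads of single libraries were recovered from its digits. Of 46275 genes above 0, 43618 were recovered in all 52 libraries, 23 of the most abundant were not solved, and among the genes tested 2634 have at least 1 pair known only as a mean. Where the digits allowed several solutions, the only one whose libraries lay within 2-fold was taken. This concerned 895 genes on day 1 of DXR, the most of any group. For such genes a wider gap between the libraries of that group could not be seen. Size factors recomputed from the recovered reads deviated by at most 0.203% (median 0.0247%). The libraries of a group are told apart by depth only.

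Reads were divided by median-of-ratios size factors over 52 libraries. The 15606 genes that averaged 10 or more over the groups were fitted as log2(normalized reads + 0.5) in 1 limma model over 26 groups (limma 3.58.1, R 4.3.3, empirical Bayes with trend and robust settings, two-sided, Benjamini-Hochberg adjustment over all genes in each comparison, threshold 0.05); differences are on that log2 scale, which understates changes of low genes. Intervals are from the same fit. Recovery and fit were checked on simulated reads, with 200 of 12972 genes changed by a log2 difference of 0.5, 1 or 2. The fit recovered 1%, 62.5% and 96.5% of these, and 66.7%, 18.3% and 16.5% of its calls were false. Smaller differences were not simulated. False calls were more frequent among genes of low level, as at a level of at least 100 they made up 0%, 4.04% and 4.93%. FOS, FOSB and BATF3 average under 100. The simulated spread between libraries came from a set formula, not from the data. It was wider than that of most real genes of high level, whose median residual SD was 0.08 near JUND. Far fewer genes were changed than were called in most comparisons here. These rates therefore cannot be carried over to the member calls. Coordinates and exon lengths are from GENCODE v29, promoters from RefSeq. Alternatives were scaling by library totals, a pseudocount of 5, other filters, voom weights, fits on the compared groups alone, a minimum log2 difference of 1 and leaving out each library.

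The members, lists and tests were chosen with earlier results of these data known. All 10 members are named; from each other list the 3 called genes with the largest absolute difference on day 0, on day 16 and in RS are named, except some that are not reported here, and for likeness the 3 genes with the highest Pearson r.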

Additional observations from a re-analysis of the deposited data

Results flagged for a closer look

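Differences between inducers on the same day that passed the limma test at an adjusted p under 0.05 are listed as log2 differences, since the same contrast with untreated cells then differed between 2 inducers. FOS had none. Of the 50 differences, 31 held with each library left out and 19 did not. For FOSL1 and JUND on day 1, the DXR libraries are known only as their mean. In their day 1 differences from DXR, only the SDS or KCl libraries could be left out singly. Those lost with any of their 4 libraries left out were FOSL1 KCl over DXR on day 2, BATF3 KCl over DXR on day 2 and BATF3 KCl over DXR on day 8, and those lost with some of them were FOSB SDS over KCl on day 0, FOSB SDS over DXR on day 0, JUN SDS over DXR on day 0, FOSL1 KCl over DXR on day 0, JUND KCl over DXR on day 0, ATF3 KCl over DXR on day 0, MAFF SDS over DXR on day 2, FOSL1 SDS over DXR on day 3, FOSL1 KCl over DXR on day 3, FOSL1 SDS over DXR on day 6, JUNB SDS over KCl on day 8, ATF3 SDS over KCl on day 8, JUNB KCl over DXR on day 8, MAFF KCl over DXR on day 8, JUN SDS over KCl on day 16 and JUNB SDS over KCl on day 16. For ATF3 the called differences were 1.40 for SDS over KCl, 2.43 for SDS over DXR, 1.03 for KCl over DXR on day 0, then -1.15 for SDS over KCl, -1.22 for SDS over DXR on day 1, then -0.77 for SDS over KCl on day 8. For FOSB the called differences were 1.46 for SDS over KCl, 1.47 for SDS over DXR on day 0, then -2.52 for SDS over KCl, 2.89 for KCl over DXR on day 16. For FOSL1 the called differences were 1.02 for SDS over KCl, 0.65 for SDS over DXR, -0.37 for KCl over DXR on day 0, then 0.78 for SDS over DXR, 0.73 for KCl over DXR on day 1, then 0.55 for SDS over DXR, 0.44 for KCl over DXR on day 2, then 0.57 for SDS over DXR, 0.62 for KCl over DXR on day 3, then 0.51 for SDS over DXR on day 6, then 0.95 for SDS over KCl, -0.63 for KCl over DXR on day 8, then -0.93 for SDS over KCl, 1.04 for KCl over DXR on day 16. For FOSL2 the called differences were -0.66 for SDS over KCl, -0.59 for SDS over DXR on day 0, then -0.68 for SDS over DXR on day 1. For JUN the called differences were 1.34 for SDS over KCl, 0.28 for SDS over DXR, -1.06 for KCl over DXR on day 0, then 0.28 for SDS over KCl on day 16. For JUNB the called differences were -0.74 for SDS over KCl, 0.61 for KCl over DXR on day 8, then 0.47 for SDS over KCl on day 16. For JUND the called differences were 0.34 for SDS over KCl, 0.57 for SDS over DXR, 0.24 for KCl over DXR on day 0, then -0.39 for SDS over DXR, -0.39 for KCl over DXR on day 1, then -0.71 for SDS over KCl, -0.78 for SDS over DXR on day 2, then -0.48 for SDS over DXR on day 3. For BATF3 the called differences were 0.97 for KCl over DXR on day 2, then 0.87 for KCl over DXR on day 8, then 1.28 for KCl over DXR on day 16. For MAFF the called differences were 0.53 for SDS over KCl, 1.11 for SDS over DXR, 0.58 for KCl over DXR on day 0, then -0.43 for SDS over DXR on day 2, then -0.42 for KCl over DXR on day 8. The groups labelled KCl day 8 and day 16, which enter some of these, were nearest over all genes to day 16 and day 8 of SDS, and whether their labels are exchanged was not tested.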

How the results depend on the processing

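No member call changed direction with scaling by library totals, a pseudocount of 5 or voom weights. The other filters, fits on the compared groups alone and the minimum log2 difference leave the differences themselves unchanged. Under these, a change of direction was not possible. Of the 180 member calls, 174 were kept with scaling by library totals, 179 with a pseudocount of 5, 147 with no filter, 143 of 143 with a minimum mean of 100, 156 with voom weights, 146 with fits on the compared groups alone and 65 with a minimum log2 difference of 1. That minimum took the calls higher and lower against untreated cells from 45 and 54 to 10 and 23, those between inducers from 31 and 19 to 11 and 4, those between days from 8 and 17 to 4 and 11, and those of day 16 against RS from 4 and 2 to 2 and 0. For the other lists it left 36 and 12 calls of 100 and 98 (bZIP), 1 and 10 of 87 and 133 (upstream), 0 and 2 of 21 and 53 (feedback), and 47 and 67 of 93 and 185 (targets). With fits on the compared groups alone, 30 calls between inducers were lower and the day 16 counts against RS were 1 and 1. With no filter, 5 were higher between days, and with a minimum mean of 100, 1 was higher against RS. Without the groups labelled KCl day 8 and day 16, an alternative chosen after seeing the data, 5 were higher between days and 1 and 0 were called against RS. Leaving out 1 library at a time gave 21 to 50 higher and 32 to 59 lower calls against untreated cells, the lowest without the shallower (higher) and the deeper (lower) untreated library. The ranges were 28 to 33 and 17 to 24 between inducers, 6 to 10 and 15 to 19 between days, and 3 to 8 and 1 to 3 against RS, the 8 without the shallower RS library. For the lists they were 74 to 108 and 62 to 106 (bZIP), 62 to 96 and 93 to 143 (upstream), 16 to 23 and 28 to 57 (feedback), and 57 to 115 and 135 to 226 (targets). The causes were not tested. No paired analysis was possible because the recovered libraries are told apart by depth only and carry no replicate number. FOS had 23 and 19 reads in the untreated libraries.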
